A study of Arabidopsis thaliana with 9 samples.

Results

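In Arabidopsis seedlings, 13 protein-coding genes had a lower share of intron reads in both pp4r3a mutants than in the wild type, while most genes had a higher one. They were chosen from exon and intron read counts pooled over the 3 libraries of each genotype, where the intron share is intron counts divided by intron plus exon counts. A locus needed 50 or more intron counts in Col-0, 300 or more exon counts in each genotype, and a share in each mutant of at most 0.67 times that of Col-0. Of 37869 loci counted, 5464 passed the count minimums and 16 of those met the share limits (0.293%). The splicing regulator gene RS31, the RNA helicase gene UAP56A and the glycine-rich RNA-binding protein gene GRP8 were 3 of the 16 and were left out by name, which left the 13. Another locus left out by name, AT4G08870, had 40 intron counts in Col-0 and did not reach the minimum. These values chose the genes, so every comparison of a mutant with Col-0 for them is a description without a test. For contrast, 2906 of the 5464 loci (53.2%) had a share at least 1.5 times that of Col-0 in both mutants. The median share of the 13 genes was 12.9% in Col-0, 6.20% in pp4r3a-1 and 5.75% in pp4r3a-2. Over the 5464 loci the median was 2.68%, 4.72% and 4.43%. The median gene of the 13 was above the median locus in Col-0 and in both mutants. The intron minimum applied to Col-0 alone, so the choice in part favoured genes with many intron counts in Col-0, and no trait of the genes is read from their Col-0 share.

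Polyadenylated RNA came from whole seedlings, 12 days old, grown on Murashige and Skoog plates with 16 h of light and 8 h of darkness. Libraries were made from the wild type in the Col-0 accession and from the mutants pp4r3a-1 and pp4r3a-2. Each of the 3 genotypes had 3 biological replicates, which gave 9 libraries. The mutants carry separate alleles of PP4R3A (AT3G06670), are compared with the same Col-0 libraries, and received no treatment named in the labels. Whole seedlings are bulk samples, in which fewer cells of a type and less RNA per cell cannot be told apart.

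PP4R3A encodes a regulatory subunit of protein phosphatase 4, a conserved serine/threonine phosphatase that removes phosphate groups from nuclear and other proteins. Pre-mRNA splicing removes introns at a donor site, usually GT, and an acceptor site, usually AG, and is carried out by the spliceosome, many of whose proteins are phosphorylated. In plants the retention of an intron is the commonest form of alternative splicing. In poly(A)-selected RNA, reads in introns can come from transcripts with a retained intron, from unspliced precursors, or from another gene that lies in the intron.

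Exon counts per library ran from 20733294 to 27022497 and intron counts from 499857 to 842797. Intron counts made up 2.0% to 2.1% of all counts in Col-0, 3.02% to 3.23% in pp4r3a-1 and 2.91% to 2.98% in pp4r3a-2. Levels below are counts per 1e6 exon counts of the library (CPM), for intron counts too, and 3 counts corresponded to 0.111 to 0.145 CPM. The PP4R3A transcript stood at 81.6 ± 1.74 CPM in Col-0, 62.7 ± 3.40 in pp4r3a-1 and 18.04 ± 0.378 in pp4r3a-2 (mean ± SD, n = 3 each). Of the seedling markers, 4 green tissue genes ranged from 2733 to 14935 CPM over the 9 libraries, and 4 root genes from 2.56 to 2072 CPM. Some moved between the alleles as well: in Col-0, pp4r3a-1 and pp4r3a-2 the mean was 13.7, 27.3 and 12.5 CPM for root PRP3, 5.17, 6.44 and 3.11 for root EXPA7, 3.81, 5.32 and 3.02 for root COBL9, and 2828, 3642 and 5061 for RCA of green tissue. The pollen gene VGD1 was at 0 in every library and PGA4 reached at most 0.0428 CPM. The seed genes OLEO1 and CRA1 were higher in the mutants, from 0.539 ± 0.0640 and 5.15 ± 1.05 CPM in Col-0 to 10.6 ± 0.330 and 51.6 ± 0.889 CPM in pp4r3a-2. The part of these markers in the results below was not tested. The third replicate of pp4r3a-2 stood apart from the others of its group, with a chi-square per degree of freedom of 8.31 and 12.1 against them and 1.62 to 3.99 in the other 7 replicate pairs. Without it all 13 genes met the rule, and 1 more did.

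Among the 13 genes, the lower share went with different levels. In 6 the intron level was at least 1.5-fold lower in both mutants, which held for 2.67% of the 5464 loci. In 3 the exon level was at least 1.5-fold higher in both (4.81% of the loci). In the other 4 neither level passed that size in both alleles. The median exon level in Col-0 was 15.8 CPM over the 13 genes and 53.2 CPM over the 5464 loci. Over the 13 genes the median log2 difference from Col-0 in intron level was -0.52 for pp4r3a-1 and -0.93 for pp4r3a-2, and over the 5464 loci it was 0.67 and 0.59. The median log2 difference in exon level was 0.43 and 0.12 over the 13 genes, and -0.12 and -0.10 over the loci. These directions follow in part from the choice of the genes.

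**Figure D1:**
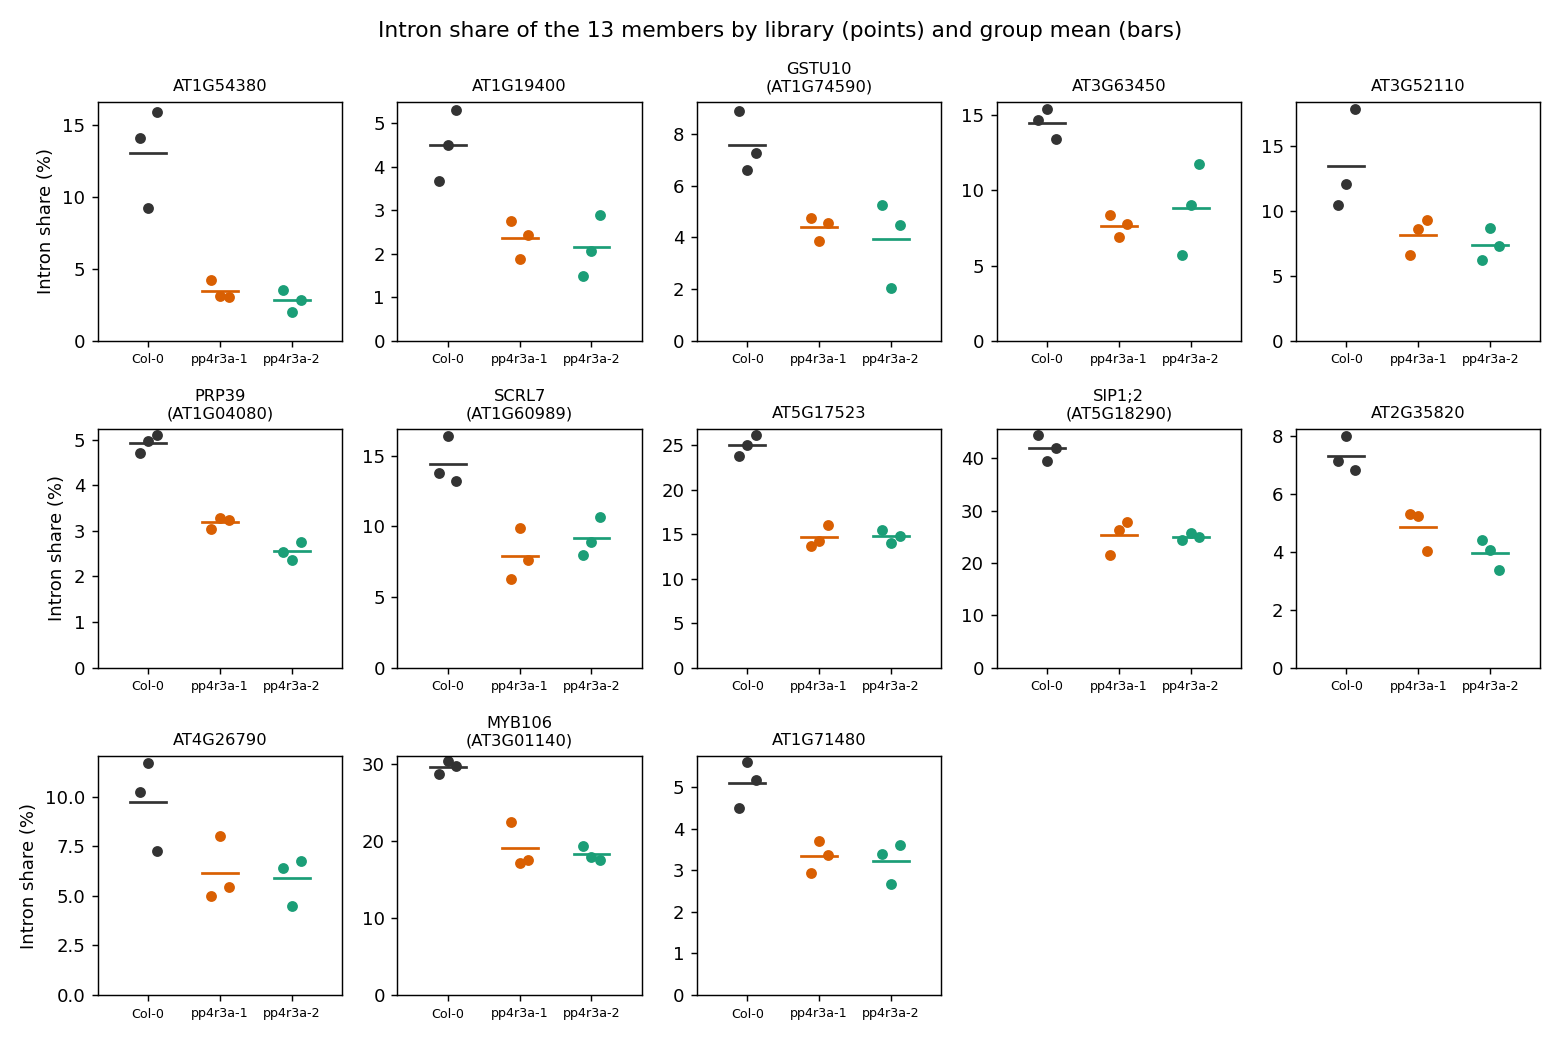
Intron share (percent of intron plus exon counts, vertical axis, starting at 0) of each of the 13 genes in Col-0, pp4r3a-1 and pp4r3a-2. Points are the 3 libraries of a genotype in replicate order and bars their mean; in 12 of the 13 panels every mutant point lies below every Col-0 point, and in AT4G26790 they overlap.

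The share of every mutant library lay below that of every Col-0 library in 12 of the 13 genes, against 1.04% of the 5464 loci, a count that the rule itself favours. The exception was AT4G26790. The intron level of every mutant library lay below every Col-0 library in 7 genes (5.33% of the loci). For the exon level, every mutant library lay above every Col-0 library in 7 genes (23.7% of the loci) and below in 2 (43.3%), and the libraries overlapped in 4.

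**Figure D2:**
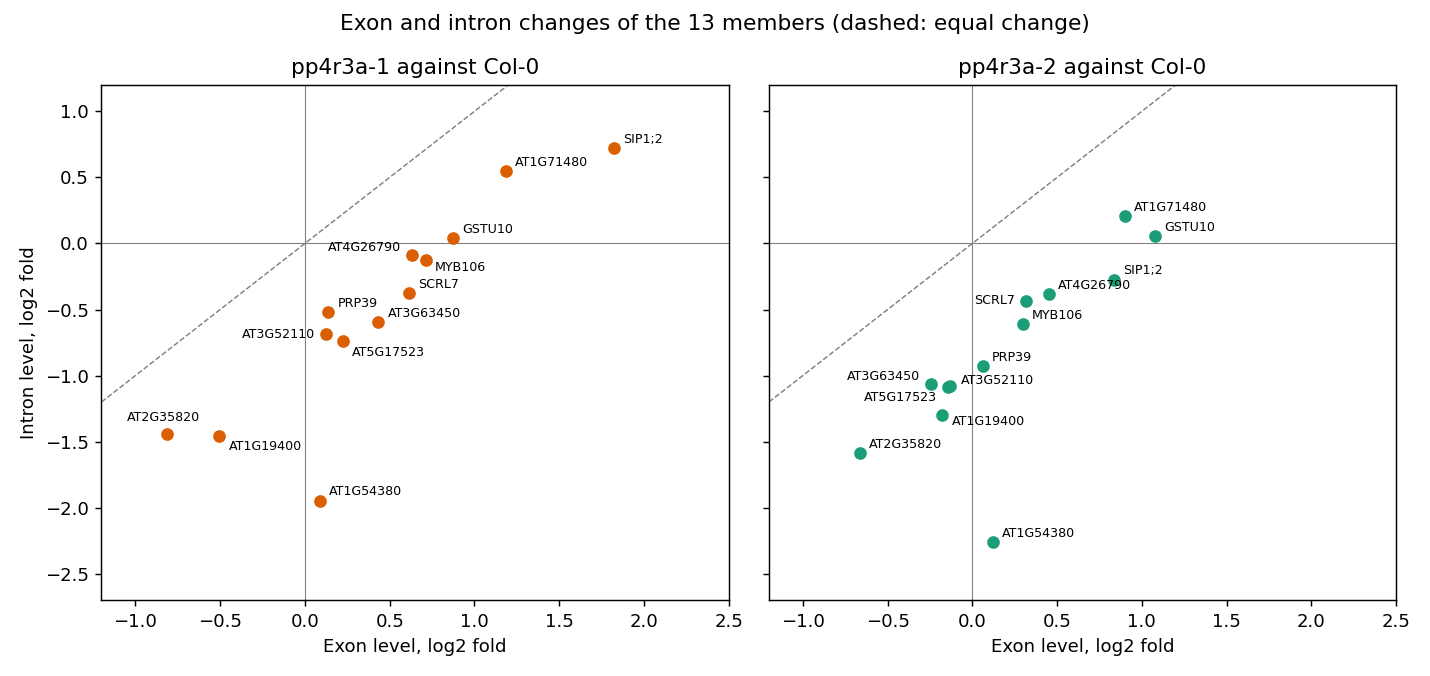
Log2 fold of the exon level (horizontal axis) and intron level (vertical axis) of the 13 genes, pooled counts per 1e6 exon counts, for pp4r3a-1 (left) and pp4r3a-2 (right) over Col-0. All points lie below the dashed line of equal change, as the rule requires; AT1G54380 is lowest in both panels, with intron values of -1.95 and -2.26 at exon values of 0.09 and 0.12, and SIP1;2 is farthest to the right in pp4r3a-1, at 1.82.

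Introns of 4 genes are printed. GSTU10 and SCRL7 each have a single annotated intron, which is shown whole. AT1G19400 has 4 annotated introns over its transcript forms, of which only the stretch shown lies outside all exons. AT1G54380, whose shorter introns are shown, had the lowest share relative to Col-0. They are the genomic strand that carries the gene, 5′ to 3′, from the RefSeq TAIR10.1 assembly, with the first and last bases of the intron (GT and AG) in capitals. The build and annotation that the counts were made on are not given in the sources used here.
AT1G54380 intron 2, chr1:20298992-20299081, minus strand: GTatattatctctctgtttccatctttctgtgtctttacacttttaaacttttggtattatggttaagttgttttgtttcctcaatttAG
AT1G54380 intron 3, chr1:20298713-20298810, minus strand: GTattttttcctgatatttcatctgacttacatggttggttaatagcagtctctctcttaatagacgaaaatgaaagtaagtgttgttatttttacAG
AT1G19400 intron, chr1:6712438-6712535, minus strand: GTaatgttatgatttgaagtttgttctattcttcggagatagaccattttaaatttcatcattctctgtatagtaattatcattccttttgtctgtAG
GSTU10 intron, chr1:28024262-28024342, minus strand: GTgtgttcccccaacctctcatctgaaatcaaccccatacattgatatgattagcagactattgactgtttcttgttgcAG
SCRL7 intron, chr1:22462300-22462384, plus strand: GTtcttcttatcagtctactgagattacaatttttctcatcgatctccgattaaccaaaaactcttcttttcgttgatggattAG

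All of these introns begin with GT and end with AG, and so did all 62 annotated introns of the 13 genes over their transcript forms, against 98.5% of the introns of 5454 loci with a gene model. The 5-base donor GTAAG stood at 9 of the 62 (14.5%) and at 15.9% of the introns of the loci. Here and below, intron bases and stretches are those outside the exons of all transcript forms of a gene, so that a stretch can be shorter than an annotated intron. The intron sequence was 66.0% A and T in the median gene of the 13 and 66.7% in the median locus. The genes had few and short intron stretches: the median was 3 stretches, with a longest one of 117 bases and 350 intron bases in all, against 6, 331 and 996 over the loci. A single such stretch was found in 3 of the 13 (23.1%) and in 7.87% of the loci. Another annotated gene overlapped 9 of the 13 (69.2%) and 38.5% of the loci, and intron bases lay in exons of another gene in 6 (46.2%) and in 12.6%. These are descriptions of the annotation, and the shares of introns and exons also depend on their lengths.

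Genes whose names tie them to RNA come first, and all 3 of them overlap no other annotated gene. AT1G54380 (chr1:20297805-20300979, minus strand) is annotated as a spliceosome protein-like protein and has 3 introns of 877, 90 and 98 bases in a single transcript form. Its intron counts were 68, 50 and 74 in Col-0, 22, 15 and 13 in pp4r3a-1, then 16, 10 and 12 in pp4r3a-2. The highest mutant count was less than the lowest Col-0 count, and the pooled share was 12.9% in Col-0, 3.48% in pp4r3a-1 and 2.76% in pp4r3a-2, or 0.271 and 0.214 times Col-0. Exon counts were 415, 493 and 391, then 497, 474 and 414, then 438, 492 and 410, and the exon levels of the 3 genotypes overlapped. The intron level was 2.60 ± 0.614 CPM in Col-0, 0.664 ± 0.131 in pp4r3a-1 and 0.546 ± 0.144 in pp4r3a-2 (mean ± SD, n = 3 each). The next lowest share relative to Col-0 was that of AT1G19400 in pp4r3a-2, at 0.474 times.

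PRP39 (AT1G04080, chr1:1051312-1056827, plus strand) encodes a tetratricopeptide repeat protein related to a yeast protein of the U1 small nuclear ribonucleoprotein, which recognises donor sites. It had the most intron counts of the 13 in Col-0, 133, 143 and 138, with 100, 102 and 88 in pp4r3a-1, then 71, 69 and 66 in pp4r3a-2, over 13 intron stretches outside the exons of its 5 transcript forms. The 3 genotypes did not overlap, with pp4r3a-2 lowest. The library shares were 4.93 ± 0.193% in Col-0, 3.19 ± 0.127% in pp4r3a-1 and 2.55 ± 0.191% in pp4r3a-2 (mean ± SD, n = 3 each). The exon level differed from Col-0 by 0.14 and 0.06 on the log2 scale, and every mutant library was above every Col-0 library.

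AT3G63450 (chr3:23426556-23429356, minus strand) encodes a protein with RNA recognition motifs, in 7 transcript forms. Its intron counts were 60, 62 and 50 in Col-0, 45, 34 and 35 in pp4r3a-1, then 17, 28 and 33 in pp4r3a-2. Its exon counts were 349, 340 and 322, then 494, 460 and 416, then 280, 283 and 247. The alleles reached a lower share by different values: the log2 difference from Col-0 was 0.43 for exons and -0.60 for introns for pp4r3a-1, and -0.24 and -1.06 for pp4r3a-2. The share was 14.5 ± 1.0% in Col-0, 7.66 ± 0.738% in pp4r3a-1 and 8.84 ± 3.03% in pp4r3a-2, where it ran from 5.72% to 11.8% (mean ± SD, n = 3 each).

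The enzymes differed among themselves. AT1G19400 (chr1:6712022-6714483, minus strand), annotated in the erythronate-4-phosphate dehydrogenase family, overlaps no other gene, and 98 of its bases are intron in all 4 transcript forms. Intron counts were 40, 51 and 54 in Col-0, 23, 14 and 16 in pp4r3a-1, then 13, 20 and 23 in pp4r3a-2. Exon counts were 1047, 1080 and 964, then 811, 733 and 642, then 864, 946 and 773. Both levels were lower in every mutant library than in every Col-0 library, and the intron level by more. The log2 differences were -0.50 and -0.18 for exons and -1.46 and -1.29 for introns in pp4r3a-1 and pp4r3a-2.

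AT2G35820 (chr2:15050498-15052239, plus strand), annotated as ureidoglycolate hydrolase, an enzyme of purine breakdown, also had both levels lower. Its intron counts were 36, 42 and 33 in Col-0, 16, 14 and 11 in pp4r3a-1, then 14, 13 and 8 in pp4r3a-2. Its exon counts were 467, 482 and 451, then 286, 253 and 261, then 304, 306 and 228. The groups of mutant and Col-0 libraries did not overlap in either. The log2 differences from Col-0 in pp4r3a-1 and pp4r3a-2 were -0.81 and -0.66 for exons and -1.44 and -1.59 for introns. Its share in pp4r3a-1, 0.664 times Col-0, was the closest to the limit. The gene shares an end with AT2G35830 on the same strand, whose exons hold none of its intron bases and whose exon counts were 1177, 1135 and 1055, then 894, 775 and 674, then 954, 1018 and 711.

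GSTU10 (AT1G74590, chr1:28023627-28024860, minus strand), a tau-class glutathione S-transferase of the family that conjugates glutathione to reactive compounds, had higher exon levels and intron levels that overlapped with Col-0. Exon counts were 256, 269 and 268 in Col-0, 522, 497 and 440 in pp4r3a-1, then 542, 576 and 468 in pp4r3a-2, with every mutant library above every Col-0 library. Intron counts were 25, 19 and 21, then 26, 20 and 21, then 30, 12 and 22. The log2 difference in exon level was 0.88 for pp4r3a-1 and 1.08 for pp4r3a-2, against 0.04 and 0.06 for introns, whose libraries overlapped. At 12 to 30 intron counts per library the share was loosely fixed, at 3.93 ± 1.67% in pp4r3a-2 (mean ± SD, n = 3). AT1G74580 and OTP87 overlap the gene at its ends, and none of their exon bases lie in its intron.

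AT4G26790 (chr4:13487457-13489376, plus strand), of the GDSL-type lipases and acylhydrolases, had the fewest intron counts in Col-0, 19, 23 and 13, with 15, 24 and 13 in pp4r3a-1, then 15, 12 and 13 in pp4r3a-2. Its exon counts were 167, 174 and 166, then 286, 276 and 225, then 220, 257 and 179. The exon level of every mutant library was above Col-0, by 0.63 and 0.45 on the log2 scale, while intron levels and shares overlapped. The highest mutant share was 8.00% and the lowest Col-0 share 7.26%. A long noncoding RNA gene on the other strand, AT4G26795, holds 148 of its 235 intron bases and had 183, 179 and 175 exon counts in Col-0, 204, 219 and 173 in pp4r3a-1, then 187, 205 and 138 in pp4r3a-2.

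Next are genes named for transport. SIP1;2 (AT5G18290, chr5:6055028-6058368, minus strand) encodes a small basic intrinsic protein of the aquaporin superfamily, which forms membrane channels. Its exon counts were 160, 180 and 161 in Col-0, 647, 608 and 521 in pp4r3a-1, then 286, 310 and 252 in pp4r3a-2, or 6.74 ± 0.375, 23.8 ± 0.820 and 12.0 ± 0.0936 CPM (mean ± SD, n = 3 each). The 3 genotypes stood apart, with pp4r3a-1 highest and Col-0 lowest. Intron counts were 128, 117 and 116, then 178, 218 and 201, then 92, 107 and 84, so that the intron level was above Col-0 in pp4r3a-1 and below it in pp4r3a-2, by 0.72 and -0.27 on the log2 scale. The share was nonetheless alike in the alleles, 25.16% and 25.02% pooled, against 41.9% in Col-0.

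The first intron stretch of SIP1;2, counted as bases outside the exons of both its transcript forms, is 1568 bases long. It holds, on the other strand, the transcription factor gene NAC088 (AT5G18300) and a long noncoding RNA gene. Their exons cover 653 of the 2046 intron bases. NAC088 had 47, 44 and 44 exon counts in Col-0, 60, 68 and 51 in pp4r3a-1, then 27, 30 and 32 in pp4r3a-2, the same order of genotypes as the intron counts of SIP1;2. The noncoding gene had 1 to 3 counts per library. Whether the counting used strand is not given in the sources used here, and without strand the reads of overlapping genes cannot be told apart; the part of the overlapping genes in the shares was not tested.

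AT5G17523 (chr5:5775586-5777350, minus strand) is annotated as a maltose excess-like protein, after the chloroplast envelope carrier that exports maltose. Intron counts were 74, 95 and 86 in Col-0, 50, 49 and 54 in pp4r3a-1, then 46, 37 and 31 in pp4r3a-2, and exon counts 237, 284 and 242, then 316, 296 and 282, then 250, 226 and 179. Intron levels were lower in every mutant library, with log2 differences of -0.74 and -1.08, and exon levels overlapped. AT5G17522 on the other strand, whose exons hold 202 of the 678 intron bases, had 75, 92 and 83 exon counts in Col-0, 47, 41 and 50 in pp4r3a-1, then 41, 37 and 26 in pp4r3a-2. In each library these were within 8 counts of the intron counts of AT5G17523.

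AT1G71480 (chr1:26931852-26933313, plus strand), of the nuclear transport factor 2 family, had exon counts of 487, 455 and 458 in Col-0, 1155, 1120 and 919 in pp4r3a-1, then 823, 908 and 747 in pp4r3a-2. Every mutant library was above Col-0, by 1.19 and 0.90 on the log2 scale. Its intron counts, 23, 27 and 25, then 35, 43 and 32, then 29, 25 and 28, gave log2 differences of 0.55 and 0.21. Both genes on its other strand, which with their exons cover 144 of its 348 intron bases, had more counts in the mutants too. The long noncoding RNA gene AT1G09253 had 178, 175 and 163 in Col-0, 479, 459 and 322 in pp4r3a-1, then 307, 360 and 257 in pp4r3a-2.

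**Figure D3:**
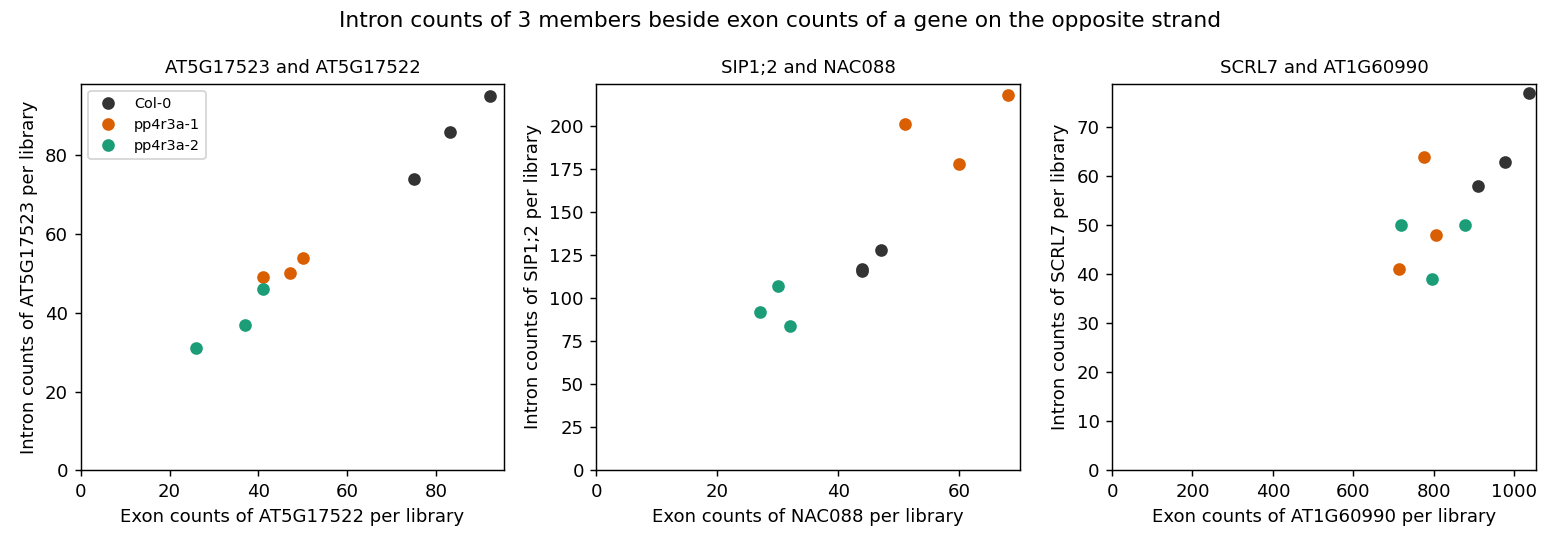
Intron counts per library of AT5G17523, SIP1;2 and SCRL7 (vertical axes) against exon counts of a gene on the other strand whose exons overlap the intron, AT5G17522, NAC088 and AT1G60990 (horizontal axes, both axes from 0). Each point is a library, coloured by genotype. For AT5G17523 both counts lie between 26 and 95 and are within 8 of each other in every library. MYB106, AT4G26790 and AT1G71480 also have intron bases in exons of another gene and are not shown. Their counts are in the text, so the panels do not stand for all such genes.

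MYB106 (AT3G01140, chr3:46330-48296, minus strand) encodes a MYB transcription factor of epidermal cells, known from the noeck mutants for its role in trichome branching. Intron counts were 100, 115 and 101 in Col-0, 114, 92 and 85 in pp4r3a-1, then 72, 69 and 55 in pp4r3a-2. Exon counts were 247, 263 and 238, then 391, 442 and 399, then 299, 315 and 258, with every mutant library above Col-0 in exon level. The share was 29.7 ± 0.809% in Col-0, 19.1 ± 2.99% in pp4r3a-1 and 18.3 ± 0.966% in pp4r3a-2 (mean ± SD, n = 3 each). All 350 intron bases lie in exons of a long noncoding RNA gene on the other strand, AT3G01142, with 310, 348 and 313 exon counts in Col-0, 442, 485 and 422 in pp4r3a-1, then 317, 336 and 271 in pp4r3a-2.

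SCRL7 (AT1G60989, chr1:22462160-22462721, plus strand) encodes a small protein of the SCR-like family, named after the pollen ligand of self-incompatibility. Exon counts were 395, 393 and 382 in Col-0, 717, 585 and 498 in pp4r3a-1, then 451, 511 and 420 in pp4r3a-2. Intron counts were 63, 77 and 58, then 48, 64 and 41, then 39, 50 and 50. Exon levels were above Col-0 in every mutant library, by 0.62 and 0.32 on the log2 scale, and intron levels overlapped, with differences of -0.38 and -0.43. Its one intron, printed above, lies wholly in an exon of AT1G60990 on the other strand, which had 979, 1038 and 911 exon counts in Col-0, 806, 776 and 713 in pp4r3a-1, then 796, 877 and 720 in pp4r3a-2.

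AT3G52110 (chr3:19323750-19325895, minus strand), annotated as an interferon-activable protein, is a gene whose role in plants is not given by that name. Intron counts were 48, 55 and 80 in Col-0, 31, 46 and 37 in pp4r3a-1, then 23, 34 and 25 in pp4r3a-2. Its exon counts were 409, 400 and 368, then 440, 486 and 359, then 347, 356 and 317, with overlapping levels. Intron levels were lower in every mutant library, with log2 differences of -0.69 and -1.08. The size rested in part on Col-0 replicate 3, whose share was 17.9%, against 10.5% and 12.1% in the other Col-0 libraries. Without that library the gene was over the share limit for pp4r3a-1. Its intron level in pp4r3a-1 was then less than 1.5-fold lower. The overlapping genes AT3G52105 and AT3G08235 hold none of its intron bases.

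The share limit cut through a continuum. Just inside it were PRP39, AT1G71480 and AT2G35820, at 0.646, 0.655 and 0.664 times Col-0 for pp4r3a-1 and 0.515, 0.630 and 0.546 for pp4r3a-2. Just outside were AT3G41979, AT1G66880 and the beta-glucosidase gene BGLU47, at 0.678, 0.680 and 0.563 for pp4r3a-1 and 0.680, 0.663 and 0.683 for pp4r3a-2. Leaving out 1 library at a time, 6 of the 13 met the share limits all 9 times: AT1G54380, AT1G19400, PRP39, GSTU10, AT5G17523 and SIP1;2. That count leaves the intron minimum aside. GSTU10, with 25, 19 and 21 intron counts in Col-0, fell under the minimum without any 1 of the Col-0 libraries. Without Col-0 replicate 2 the whole rule left 8 genes, all among the 13. Of the 5 lost, 3 were under the count minimum and 4 over the share limit, some both.

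The choice of genes bounded the share in each allele, which removed genes whose alleles disagreed, so the intron to exon ratio of the alleles is given here as a description. For the intron to exon ratio of pp4r3a-2 against pp4r3a-1, edgeR called 1.5% of 11133 genes higher and 6.74% lower at an adjusted p under 0.05, and 0 of the 13 either way, a count that the choice of genes in part fixes and from which nothing is read. PRP39 alone of the 13 had an unadjusted p under 0.05. With limma on the log2 ratio 0 of the 13 were called, and 0.0449% of all genes were higher and 0.278% lower. The estimates ran from -0.34 to 0.24 on the log2 scale with SEs of 0.126 to 0.341, and 10 of 13 were below 0. Their median was -0.112, close to the -0.110 over all 11133 genes, so the lean below 0 is not particular to the 13. The 95% interval of the difference was -0.26 to 0.23 for SIP1;2 and -0.98 to 0.29 for AT1G54380. These intervals do not allow for the choice of genes, so no limit on the allele difference is read from them.

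The choice of genes set no limit on the difference between alleles in exon or intron level. The pooled counts of both alleles did enter it, so the calls below are not wholly free of the choice. In exon level the alleles differed in 10 of the 13 genes by edgeR's quasi-likelihood test. There were 7 lower in pp4r3a-2 than in pp4r3a-1 (53.8%, against 23.7% of 22631 genes) and 3 higher (23.1%, against 24.2%). The log2 difference was -0.94 for SIP1;2 (SE 0.064, edgeR adjusted p 3.59e-15) and -0.64 for AT3G63450 (SE 0.067, edgeR adjusted p 3.64e-10). MYB106, AT5G17523, SCRL7, AT1G71480 and AT3G52110 had -0.38, -0.33, -0.26, -0.24 and -0.21. AT1G19400 was higher by 0.36 (SE 0.049, edgeR adjusted p 7.65e-08), GSTU10 by 0.24 and AT2G35820 by 0.19. The calls for AT2G35820 and AT3G52110 were lost with DESeq2, at adjusted p of 0.136 and 0.0711, and that for AT2G35820 also without the filter and with the mutants alone in the fit, at edgeR adjusted p of 0.0658 and 0.069. PRP39, AT1G54380 and AT4G26790 had -0.035, 0.074 and -0.14, with edgeR adjusted p of 0.452, 0.369 and 0.149.

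In intron level 3 of the 13 were lower in pp4r3a-2 than in pp4r3a-1 (23.1%, against 11.5% of 11133 genes) and 0 were higher (7.68% of the genes). They were SIP1;2 at -0.96 on the log2 scale (SE 0.12, edgeR adjusted p 1.25e-12), MYB106 at -0.45 (SE 0.14, edgeR adjusted p 0.0141) and PRP39 at -0.37 (SE 0.14, edgeR adjusted p 0.0479). In SIP1;2 the allele differences in exon and intron level, -0.94 and -0.96, lay within their SEs of each other. The share limits in each allele bear on that closeness, so nothing is read from it. The calls for MYB106 and PRP39 were lost with DESeq2, at adjusted p of 0.221 and 0.381, and that for PRP39 also with TMM on the intron counts and with at least 10 intron counts, at edgeR adjusted p of 0.127 and 0.0635.

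**Figure D4:**
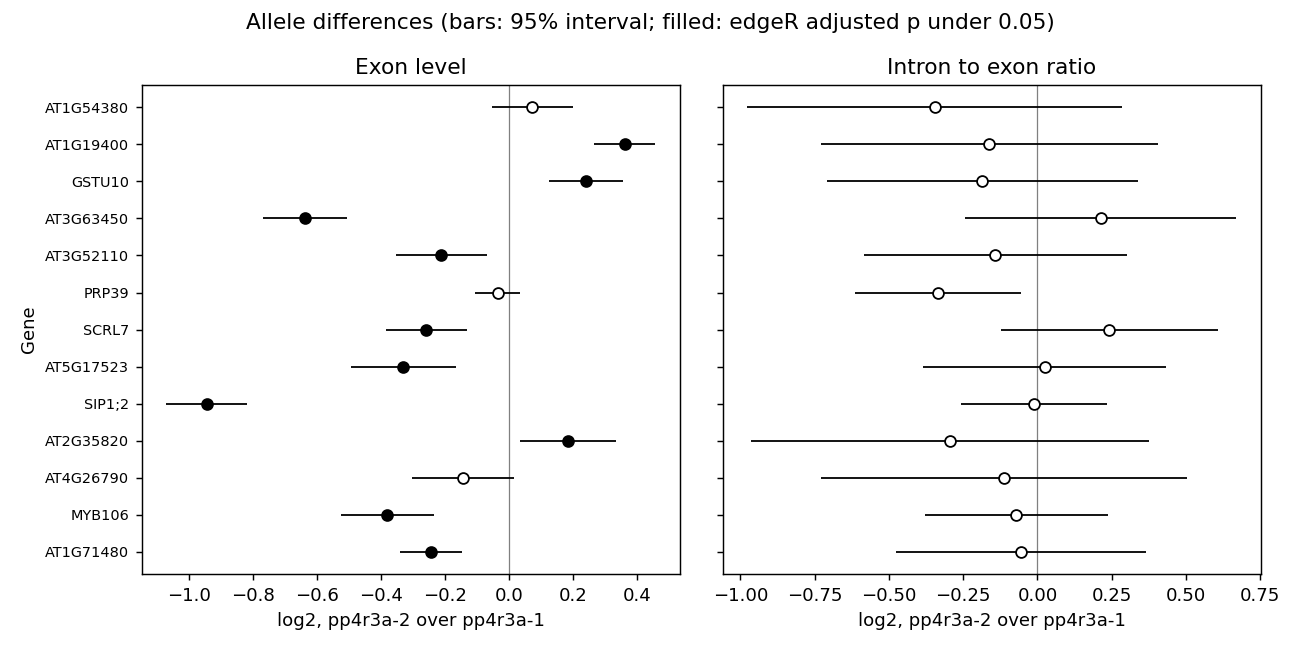
Log2 difference of pp4r3a-2 over pp4r3a-1 (horizontal axes) in exon level (left) and intron to exon ratio (right) for the 13 genes, with bars of 95% interval and filled points where the edgeR adjusted p was under 0.05. In the left panel 10 points are filled, with SIP1;2 lowest at -0.94, and in the right panel 0 are filled, with values from -0.34 to 0.24.

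Genes of the splicing machinery were taken from lists that hold none of the 13, leaving out PRP39, AT1G54380 and AT3G63450, whose names also tie them to RNA. The listed genes had a higher intron to exon ratio in the mutants about as often as all genes, and a lower one more often. The lists were chosen with earlier results of these data known, so nothing is read from the falls. Of 18 SR and SR-like genes with enough counts, 14 rose and 1 fell at an edgeR adjusted p under 0.05 in a contrast of Col-0 with the mean of the alleles, and of 28 spliceosome, cap and RNA-binding genes 22 rose and 5 fell. Over all 11133 genes 78.4% rose and 1.3% fell. The median log2 differences were 0.78 and 0.80, and 0.93 over all genes. In lists of other pathways, which also hold none of the 13, 0 genes fell. Those that rose were 10 of 16 circadian clock genes, 1 of 8 for flavonoids and anthocyanins, 9 of 12 for starch, 10 of 11 for jasmonate, 0 of 1 for heat shock, 9 of 13 for glucosinolates, 5 of 7 for phosphate starvation, and 5 of 9 for abscisic acid, cold and drought. The genes that fell were RS31 at -1.31, UAP56A at -1.25, GRP8 at -1.07, UAP56B at -0.52, GRP7 at -0.44 and U2AF65B at -0.29, of which RS31, UAP56A and GRP8 had been left out of the 13 by name and so were known to be lower. UAP56A and UAP56B are near-identical copies whose reads the counting may divide between them.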

How the data were processed

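The authors deposited, per the file headers, raw exon counts and intron counts for 37869 loci in each of 9 libraries, which were used as they stand. Per the labels' protocols, poly(A) RNA was made into libraries with an NEBNext kit. Per the submitters' processing notes, reads were aligned with STAR. The STAR version, genome build, annotation, counting program and strandedness are not given in the sources used here. Locus names, gene models, overlaps and sequences came from RefSeq TAIR10.1, in which 37573 loci were found by locus tag.

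The genes and lists were chosen with earlier results of these data known. All 13 genes are named, since a list of up to 30 was to be named whole. Levels are counts per 1e6 exon counts of the library. The alleles were compared with edgeR's quasi-likelihood test, with all 9 libraries in the fit, TMM scaling, filterByExpr and Benjamini-Hochberg adjustment over all genes tested, called at an adjusted p under 0.05, two-sided. The ratio test fitted intron and exon counts together with 1 term per library, and the intron test used the exon library sizes. Both took the 11133 genes past the exon filter whose intron counts summed to 90 or more over all libraries. SEs are the log2 change over the square root of the F statistic, and 95% intervals are 1.96 SE each way. P-values rest on the spread between biological replicates, 3 per genotype, and in the main fits the 3 genotypes share one estimate of it. Intervals and floors cover no other error. The fits were also run on simulated data in which intron counts took the spread of exon counts. That spread need not match real intron counts, and nothing is read from that run here. Replicate numbers are shared between genotypes without a stated link.

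The alternatives were other scalings, filters, share limits and intron minimums, DESeq2, limma, the mutants alone, a replicate block, and leaving out each library. The tests of splicing gene lists, a robust ratio fit and leaving out Col-0 libraries in the allele tests were added after seeing the data. Fits ran in R 4.3.3 with edgeR 4.0.16, DESeq2 1.42.0 and limma 3.58.1. Tables and figures were made in Python 3.11.15 with numpy 2.4.6, pandas 2.3.3 and matplotlib 3.10.9.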

Additional observations from a re-analysis of the deposited data

Results flagged for a closer look

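These results were singled out because edgeR's test of pp4r3a-2 against pp4r3a-1 found a difference between the alleles, on the log2 scale. Exon level was lower in pp4r3a-2 for SIP1;2 (AT5G18290) at -0.94, AT3G63450 at -0.64, MYB106 (AT3G01140) at -0.38, AT5G17523 at -0.33, SCRL7 (AT1G60989) at -0.26, AT1G71480 at -0.24 and AT3G52110 at -0.21. It was higher for AT1G19400 at 0.36, GSTU10 (AT1G74590) at 0.24 and AT2G35820 at 0.19. The intron level was lower for SIP1;2 at -0.96, MYB106 at -0.45 and PRP39 (AT1G04080) at -0.37. The edgeR adjusted p of these ran from 3.59e-15 to 0.0479. Over all genes tested, 23.7% were lower and 24.2% higher in exon level, and 11.5% were lower in intron level. Counts of both alleles entered the choice of the genes, so these calls are not wholly free of it. With DESeq2 the exon calls of AT2G35820 and AT3G52110 and the intron calls of MYB106 and PRP39 were lost.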

How the results depend on the processing

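The rule gave 13 genes. It gave 1 at a share limit of 0.5, 31 at 0.75 and 4 among genes with no overlap, and 8 to 19 with 1 library left out, 8 without Col-0 replicate 2. A 2-fold size in place of 1.5-fold left 0 genes with a higher exon level (3 before) and 3 with a lower intron level (6 before). Scaling by TMM or DESeq2 size factors changed neither count. With 1 library left out, 5 or 6 genes had the lower intron level, 5 without any 1 of the Col-0 libraries, and 3 had the higher exon level. Over all genes, calls of the intron level between alleles fell from 2137 to 1038 with DESeq2 and 1126 with at least 450 intron counts, and calls of the allele ratio from 917 to 36 with limma. With 1 library left out the latter ran from 586, without pp4r3a-2 replicate 2, to 944. Calls of the ratio in the mean of both alleles fell from 8871 to 2482 at 450 counts, where fewer genes were tested, and the splicing genes that rose from 36 to 13. Of the 13, the 3 with a lower intron level became 1 with DESeq2 and 1 to 4 with 1 library left out, 1 without pp4r3a-1 replicate 1 or pp4r3a-2 replicate 2.

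Calls near the threshold were lost under several settings, some of which are given above. Among libraries left out, the intron call of PRP39 was lost without Col-0 replicate 2, any pp4r3a-1 library, or pp4r3a-2 replicate 1 or 2 (edgeR adjusted p 0.0501 to 0.21), and that of MYB106 without pp4r3a-1 replicate 1 or pp4r3a-2 replicate 2 (0.0911 and 0.0667). The exon call of AT2G35820 was lost without any 1 library except the third of each mutant (0.0508 to 0.207), and that of AT3G52110 without replicate 2 of either mutant (0.185 and 0.0932).

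Estimates that did not pass the test turned sign under some settings; the cause was not tested. The intron level of SCRL7 was 0.071 with DESeq2, 0.060 with TMM on the intron counts, and -0.16 to 0.17 with 1 library left out. In the same way the intron level ran from -0.065 to 0.42 for AT1G19400, from -0.25 to 0.41 for GSTU10, from -0.24 to 0.016 for AT2G35820 and from -0.41 to 0.039 for AT4G26790. The ratio ran from -0.41 to 0.044 for AT1G19400, -0.15 to 0.077 for AT1G71480, -0.49 to 0.16 for GSTU10, -0.16 to 0.095 for MYB106, -0.055 to 0.47 for AT3G63450, -0.27 to 0.15 for AT4G26790, -0.034 to 0.11 for AT5G17523 and -0.15 to 0.082 for SIP1;2.

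Same-numbered libraries did not deviate together, with correlations of -0.09 to 0.07 over 9 pairs. With the replicate block PRP39 lost its intron call (edgeR adjusted p 0.0556), which left 2 of the 13 lower, and no other call of the 13 changed. Intron counts of 8 to 218 per library limit every share.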
